A study of Mus musculus with 9 samples.

Results

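The 9 genes described here encode transcription factors that are commonly named in the corneal epithelium: Pax6, Klf4, Klf5, Trp63, Elf3, Ehf, Tfap2a, Otx1 and Foxc1. They were taken by name from the platform annotation as every probe set whose only gene symbol was one of the 9. This gave 25 probe sets, out of 45037 that were not array controls, for 9 of 18193 genes. The probe set whose mean over the 9 arrays was highest (the brightest) stands for the gene, and the remaining ones serve as a check. Affymetrix arrays were run on central cornea RNA of adult males from the inbred mouse strains C57Bl/6J, called B6 here, C57BLKS/J, called KS, and SJL/J, called SJL. The labels describe the cornea of KS as thin and that of SJL as thick, and they give no thickness for B6. All mice were 4 months old, carried no named allele and received no agent, and each of the 3 arrays of a strain stood for 1 mouse, from which a 2-mm punch of either eye was combined. The punch held epithelium, stroma and endothelium together, so fewer cells of a type and less RNA per cell cannot be told apart, and strain cannot be told apart from corneal thickness.

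Pax6 is the paired-box factor on which eye formation depends, and in the adult it keeps the corneal epithelium in its differentiated state. Klf4 and Klf5 are zinc-finger factors of the Krüppel family that act on barrier and differentiation genes, Trp63 encodes p63, which maintains the basal cells of stratified epithelia, and Elf3 and Ehf are ETS factors of epithelial cells. Tfap2a, a helix-span-helix factor, Otx1, an orthodenticle homeobox factor, and Foxc1, a forkhead factor, also act in the forming head and eye, and Foxc1 is well known from the mesenchyme that gives the stroma and endothelium.

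Values are intensities on a linear scale as deposited, and their strain differences are given as log2(intensity + 10), first strain minus second, with p-values from limma adjusted over 22519 probe sets by the Benjamini-Hochberg method. A difference is called when the adjusted p is under 0.05. Array upper quartiles ranged from 380 to 398. The epithelial marker list, with Krt12 and Krt5 among its 9 genes, summed to 159416 to 167819 on the 9 arrays, and all 9 genes lay above 100 on every array. KS replicate 3 stood apart: its 15 photoreceptor markers summed to 8868, against 455 to 515 on the other 8 arrays, where 14 of the 15 were below 16. B6 replicate 3 and SJL replicate 2 had the highest ratios of 3' to 5' signal for the Gapdh control, with log2 values of 1.55 and 1.17 against 0.73 to 0.93 on the other 7 arrays. The beta-actin control also had them highest, at 1.56 and 1.10 against 0.86 to 1.04. The transferrin receptor control did not: B6 replicate 3 was lowest at 0.14, SJL replicate 2 lay at 0.34 and B6 replicate 2 was highest at 0.75. For the pyruvate carboxylase control they lay at 6.66 and 6.83, within a range of 6.44 to 6.89. Differences that change with these arrays are given with and without them.

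Otx1 was the only one of the 9 whose brightest probe set was called in any contrast. Otx1 was highest in KS, intermediate in B6 and lowest in SJL. The other 8 differed by -0.24 to 0.28 between SJL and KS, by -0.18 to 0.10 between KS and B6 and by -0.22 to 0.10 between SJL and B6. Limma called 1 of 9 members in SJL against KS, where 14.9% of 10956 genes were called at their brightest probe set. It called 1 of 9 in KS against B6, where the share of all genes was 6.27%, and 1 of 9 in SJL against B6, where it was 16.1%. In an F-test across the 3 strains 1 of 9 was called, against 19.4% of all genes. The share of members called was thus near that of all genes in each of these tests. The widest 95% intervals among the 8 uncalled factors reached -0.47 (Klf5) and 0.54 (Elf3) in SJL against KS, and differences within such intervals are not resolved by 3 arrays a strain. For 8 of the 9 members the highest of the 9 arrays was under 1.5 times the lowest, which held for 36.2% of all genes tested.

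**Figure D1:**
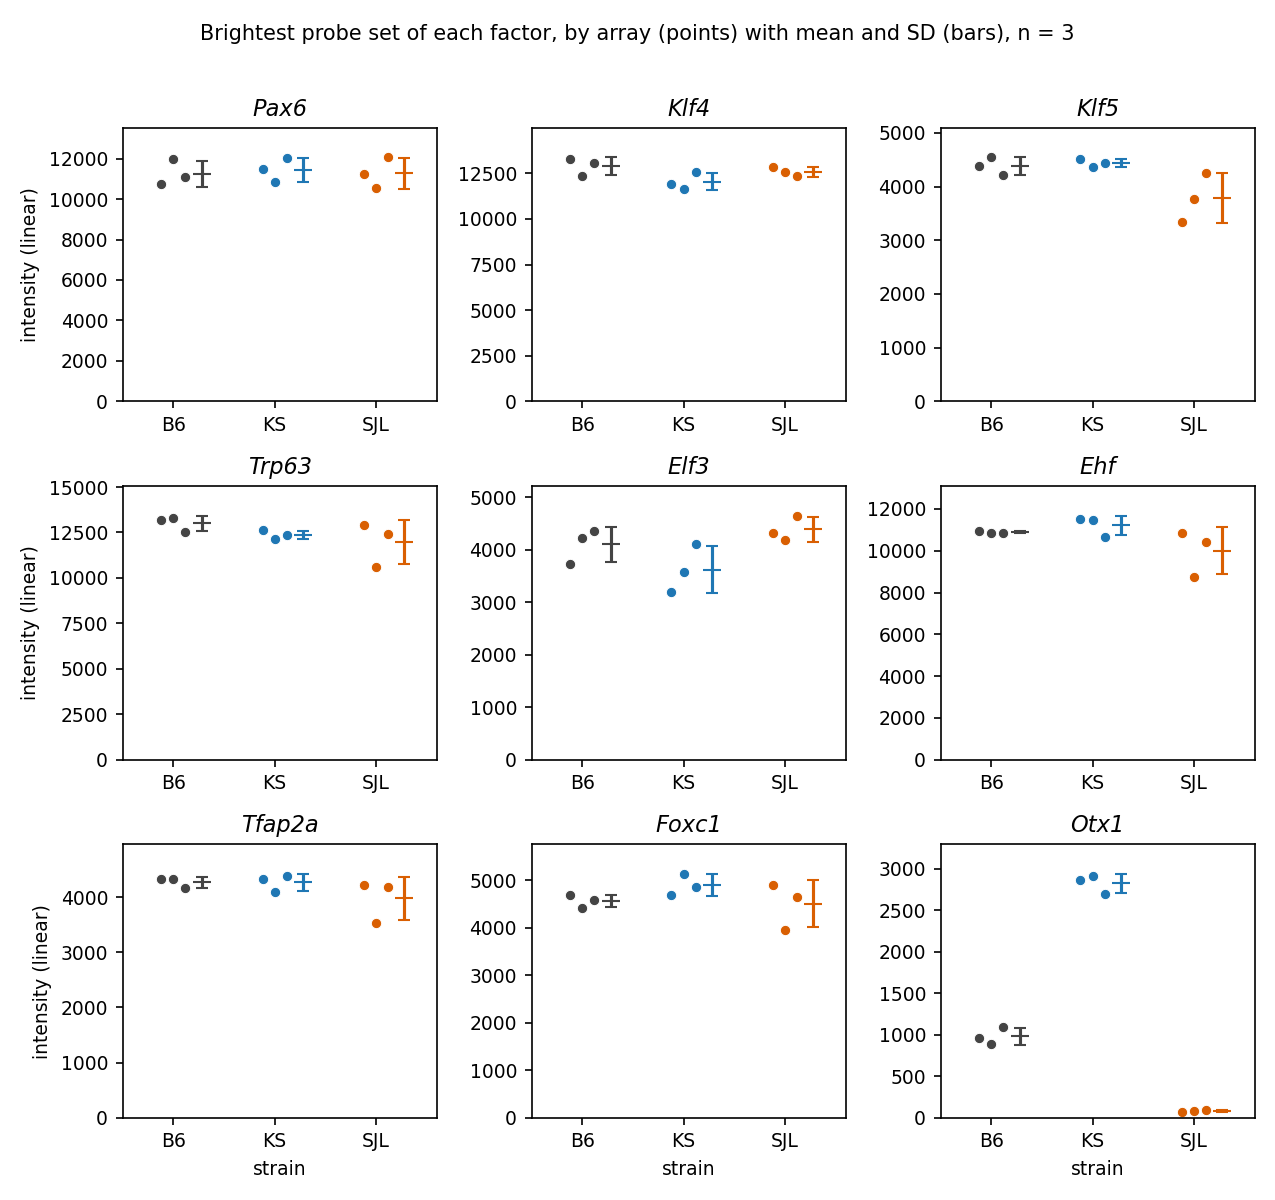
Intensity (vertical axis, linear scale from 0) of the brightest probe set of each factor in the 3 strains (horizontal axis), with 1 point per array and a bar for mean and SD (n = 3). Otx1 separates into 3 groups, at 2689 to 2914 in KS, 894 to 1096 in B6 and 66.9 to 92.0 in SJL, while the points of the other 8 factors lie close together.

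Otx1 lay at 958, 894 and 1096 on the B6 arrays, at 2859, 2914 and 2689 on the KS arrays and at 66.9, 82.6 and 92.0 on the SJL arrays. The groups did not overlap, and the order KS above B6 above SJL held for every array. The means with SD (n = 3) were 982 ± 103 for B6, 2821 ± 117 for KS and 80.5 ± 12.7 for SJL. SJL was 35-fold lower than KS, a log2 difference of -4.98 with a 95% interval of -5.26 to -4.69 (limma adjusted p = 6.31e-08). KS was 2.87-fold higher than B6 (1.52, interval 1.23 to 1.80, adjusted p = 0.000161). SJL was 12.2-fold lower than B6 (-3.46, interval -3.74 to -3.17, adjusted p = 6.43e-07). These spacings were many times the spread between mice of a strain. By absolute difference Otx1 ranked 18 of 10956 genes in SJL against KS, 60 in SJL against B6 and 196 in KS against B6. The order KS above B6 above SJL, with no overlap and a call in all 3 contrasts, was met by 27 of the 10956 genes (0.246%), and a call in all 3 contrasts with any order by 126 (1.15%).

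Otx1 had 1 probe set, so no second one checks its order. Whether the strains differ in sequence under the probes of Otx1, or of any other member, was not examined. Without KS replicate 3 the differences were -5.01 for SJL against KS and 1.55 for KS against B6, and both were still called (adjusted p = 2.02e-06 and 0.00129). Otx2, the homeobox relative of Otx1 that is active in photoreceptors, lay at 24.1 on KS replicate 3 and between 4.73 and 4.93 on the other 8 arrays, while Otx1 on KS replicate 3 was the lowest of the KS values. Of 9 markers of the limbus and conjunctiva 8 were tested. Limma called 4 lower and 0 higher in SJL than in KS, where 14.9% of all genes were called. It called 5 lower and 1 higher in SJL than in B6, where the share of all genes was 16.1%. In KS against B6, where Otx1 was higher in KS, it called 2 of these markers lower in KS and 0 higher, against 6.27% of all genes. Krt15, a basal and limbal keratin, lay at 11.2 to 251 in SJL and 7043 to 13641 in the other strains, Krt13, a conjunctival keratin, at 3216 to 4307 against 11014 to 13091, and Gpha2 and Ifitm3 were also called lower in SJL in both contrasts. Krt4 was called lower in SJL than in B6 (-2.97, adjusted p = 0.00169) and not than in KS (-0.89, 0.199). Krt19, another keratin of the list, went the other way, at 3061 to 3761 in SJL against 1847 to 2257 in B6 (0.67, adjusted p = 0.0192), with 0.46 against KS (0.0815). Krt8 (1.87) and Krt7 (0.62) were above B6 on all SJL arrays without a call (adjusted p = 0.0655 and 0.232), and the goblet cell mucin Muc5ac was at 4.31 or lower throughout. The list summed to 9841 to 11811 in SJL, 26204 to 29760 in KS and 30833 to 39500 in B6, a sum in which Krt15, Krt13 and Ifitm3 weigh most. The 9 stromal markers summed to 51352 to 53194 in SJL and 57905 to 65089 in the other strains. The part of these cell types in the Otx1 result was not tested.

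Across the 9 arrays the genes whose pattern was most like that of Otx1 were Fndc1, Upb1 and Snx31. Likeness was measured as the mean absolute difference between log2 values after each gene was centred on its own mean, and it was 0.19 for Fndc1, 0.22 for Upb1 and 0.23 for Snx31, over 9 arrays and 10956 genes. Fndc1, a gene for a fibronectin type III domain protein, averaged 164 in B6, 443 in KS and 9.24 in SJL. Upb1, which encodes the last enzyme of pyrimidine breakdown, had 142, 433 and 5.79, and Snx31, a sorting nexin, had 122, 423 and 6.00. In SJL all 3 had means near the lowest intensity of the table, 3.39, and are upper bounds there.

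Otx1 lies on chromosome 11 at 21994764 to 22001651 in GRCm38.p6. Of the 10 nearest genes tested, 5 on each side, limma called 1 in SJL against KS. That was Cct4, a chaperonin subunit (0.41, adjusted p = 0.0486). It called 0 in KS against B6, with 2 at an unadjusted p under 0.05, and 0 in SJL against B6, with 1. The adjacent tested genes Wdpcp (0.08) and Ehbp1 (-0.15) were not called in SJL against KS (adjusted p = 0.709 and 0.455). None of the 10 differed by more than 0.41 (log2) in any contrast. Coordinates of the other members below are of the same build.

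**Figure D2:**
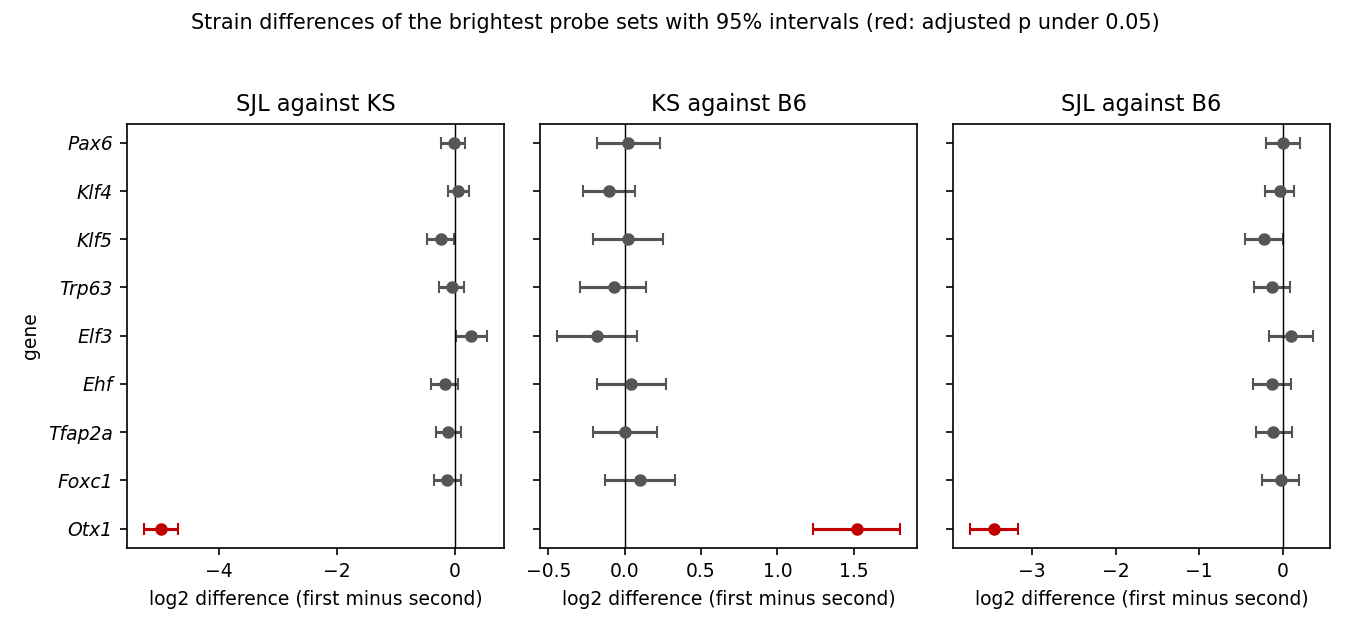
Log2 difference of the brightest probe set of each factor (horizontal axis, first strain minus second, log2(intensity + 10), scale differing between panels) with its 95% interval in 3 contrasts of 3 against 3 arrays, and red for an adjusted p under 0.05. Otx1 lies at -4.98, 1.52 and -3.46, and the other 8 factors lie between -0.24 and 0.28.

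Pax6, at 105668896 to 105698410 on chromosome 2, did not separate the strains by its brightest probe set. It lay at 10719, 11958 and 11083 in B6, at 11508, 10822 and 12015 in KS and at 11244, 10538 and 12063 in SJL. The 3 groups overlapped, and the differences were -0.02 for SJL against KS (interval -0.23 to 0.18), 0.02 for KS against B6 (-0.18 to 0.23) and 0.00 for SJL against B6 (-0.20 to 0.21). Retina also transcribes Pax6. Without KS replicate 3, the array with photoreceptor signal, the differences were 0.01 for SJL against KS and -0.01 for KS against B6. Without B6 replicate 3 and SJL replicate 2 the first turned to 0.03, uncalled. The 8 markers of the inner retina summed to 719 on KS replicate 3 and 520 to 874 on the others, a sum in which Pcp2 and Rbpms weigh most. Below 16 lay 5 of the 8 on KS replicate 3 and 6 on each other array. Rlbp1 read 33.4 on KS replicate 3 against 4.95 to 5.19 elsewhere, and Gad1 6.66 against 4.99 to 5.38.

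Of the 5 Pax6 probe sets, 1 gave a call. The third brightest, 1437816_at, lay at 495, 529 and 531 in B6, 627, 685 and 666 in KS and 472, 470 and 531 in SJL, so that KS lay above both other strains on every array. It was lower in SJL than in KS by -0.42 (interval -0.61 to -0.22, limma adjusted p = 0.0121). It was higher in KS than in B6 by 0.34, a difference that was not called (0.0591). That difference was called with no filter (adjusted p = 0.0461), with pseudocount 50 (0.0354) and with array weights (0.0201). The fit with array weights, here and below, did not fully converge. It called 9450 of 22519 probe sets in SJL against KS, where the fit as reported called 3489. The SJL against KS call of 1437816_at was lost without KS replicate 2 (-0.39, adjusted p = 0.0520). It held without the pair of arrays of highest Gapdh 3' to 5' ratio (-0.39, adjusted p = 0.0333). The other probe sets gave no call. The faintest lay at 7.71 to 13.9, near the lowest values of the table.

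Besides these, 1452526_a_at and 1425960_s_at had their lowest values on single arrays of B6 and SJL. All KS values lay above all B6 values for both probe sets, and above all SJL values for 1452526_a_at. For 1452526_a_at the arrays read 2264, 2685 and 952 in B6, 2763, 2912 and 2939 in KS and 2670, 1541 and 2528 in SJL. B6 replicate 3 and SJL replicate 2 were the lowest, and they were also the arrays with the highest 3' to 5' ratio of Gapdh. For 1425960_s_at the same arrays read 97.8 and 168 against 335 to 610 on the other 7. Without them the difference of KS against B6 fell from 0.67 to 0.22 for 1452526_a_at and from 1.13 to 0.47 for 1425960_s_at, and neither was called in either case. Where the probes lie along the Pax6 transcript was not analysed here.

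The RefSeq table of GRCm38.p6 held promoter windows for 5 of the 9 members, 7 windows in all: Pax6 and Tfap2a with a pair each, and Klf4, Elf3 and Foxc1. Klf5, Trp63, Ehf and Otx1 were not among them. The bases before each of the Pax6 starts are printed because the probe sets of this gene read differently and the gene has more than 1 start. The first window is chr2:105668646-105668895 and the second is chr2:105682213-105682462, both on the plus strand, each 250 bases long. Capitals mark a match, on either strand, to any of the 4 motifs named after the sequences.
Pax6 upstream start: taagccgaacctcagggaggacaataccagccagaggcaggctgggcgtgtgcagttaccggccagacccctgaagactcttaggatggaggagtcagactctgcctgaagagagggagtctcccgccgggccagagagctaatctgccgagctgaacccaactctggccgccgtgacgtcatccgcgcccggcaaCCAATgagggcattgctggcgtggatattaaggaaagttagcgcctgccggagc
Pax6 downstream start: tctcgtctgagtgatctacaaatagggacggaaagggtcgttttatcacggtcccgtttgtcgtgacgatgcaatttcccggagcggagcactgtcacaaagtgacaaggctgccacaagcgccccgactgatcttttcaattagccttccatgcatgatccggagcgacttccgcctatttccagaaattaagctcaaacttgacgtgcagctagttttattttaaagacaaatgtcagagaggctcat
CCAAT, the letters bound by NF-Y, occurred 1 time in the first window and 0 times in the second, and 33.8% of all 32851 windows of this length held it. The other motifs searched had no match in either window. GGGCGG, the GC box bound by Sp and Krüppel-like factors, was held by 32.7% of all windows, TATAAA by 12.4% and the OTX letters TAATCC by 6.25%. The window of Klf4 held 4 GC boxes, some of which overlap. A match is a description of these letters and not a bound site.

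Klf4, at 55527137 to 55532475 on chromosome 4, was not called in any contrast. Its brightest probe set read 13287, 12363 and 13036 in B6, 11911, 11651 and 12561 in KS and 12865, 12561 and 12323 in SJL, so that the strains overlapped. The second probe set, 1417394_at, read 12096, 11765 and 11836 in B6, above all KS values (10540, 8807 and 10210) and all SJL values (11302, 11042 and 10526). Its difference of KS against B6 was -0.28 (interval -0.48 to -0.07), which was not called (adjusted p = 0.138) except with the intensity trend (0.0390), and the brightest gave -0.10 (interval -0.27 to 0.07).

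Klf5, at 99298691 to 99313412 on chromosome 14, was called by its second probe set and not by its brightest. The brightest, 1451021_a_at, read 4382, 4545 and 4218 in B6, 4519, 4366 and 4443 in KS and 3336, 3766 and 4254 in SJL. All 3 SJL arrays lay below all 3 KS arrays, but SJL itself spread widely, and the difference of -0.24 (interval -0.47 to -0.01) was not called (adjusted p = 0.160). The second, 1451739_at, read 528, 468 and 274 in B6, 444, 564 and 564 in KS and 259, 179 and 195 in SJL. Every SJL array lay below every array of the other strains. It was 2.48-fold lower in SJL than in KS (-1.28, interval -1.84 to -0.72, limma adjusted p = 0.00869) and lower in SJL than in B6 (-0.94, interval -1.50 to -0.37, adjusted p = 0.0344). The SJL against KS call held under every alternative that tested this probe set, with adjusted p from 6.28e-05 to 0.0446. The SJL against B6 call was lost when B6 replicate 1 or 2, KS replicate 2 or 3, or replicate 2 or 3 of SJL was left out (adjusted p = 0.0552 to 0.105). The faintest Klf5 probe set, at 5.18 to 7.07, was not tested.

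In SJL against KS 3 of the 9 members had groups that did not overlap, namely Klf5, Elf3 and Otx1, against 35.5% of all genes tested. In KS against B6 it was 1 of 9, against 31.1%, and in SJL against B6 it was 1 of 9, against 32.8%. Over all probe sets of the members, 22 of 25 were tested and 3 were called in SJL against KS, against 15.5% of all probe sets tested. In KS against B6 the count was 1 of 22 (5.71% of all) and in SJL against B6 2 of 22 (16% of all). In the F-test it was 3 of 22 (19.4% of all).

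**Figure D3:**
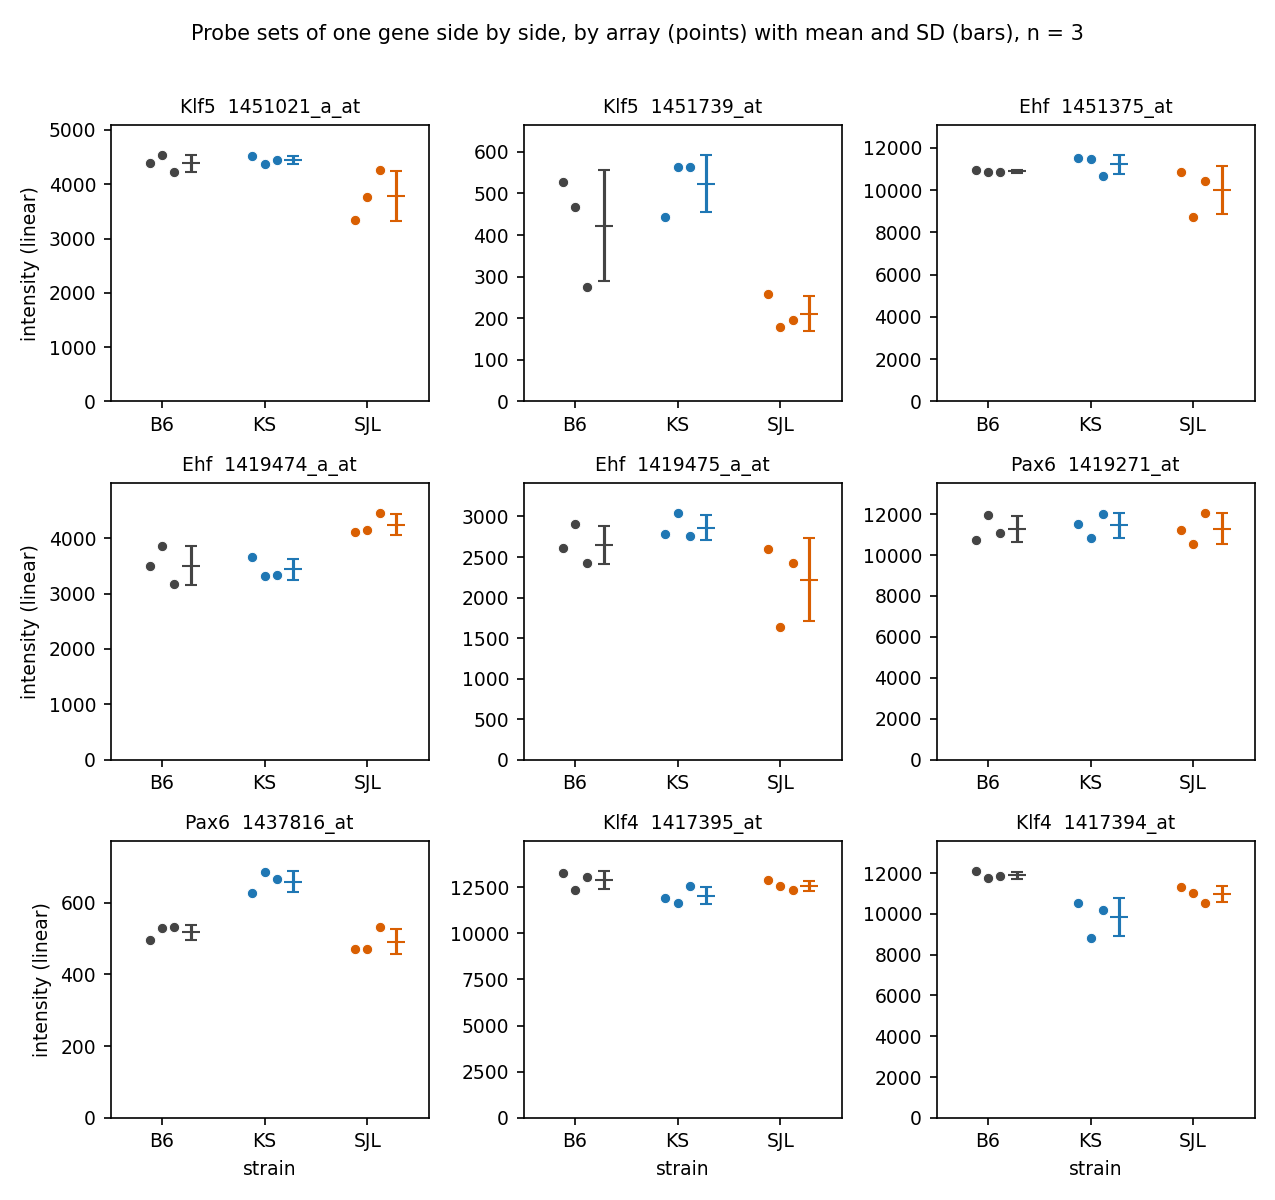
Intensity (vertical axis, linear scale from 0) by strain (horizontal axis) for the probe sets of Klf5, Ehf, Pax6 and Klf4, with 1 point per array and a bar for mean and SD (n = 3). For Klf5 1451739_at the SJL arrays lie at 179 to 259 below all others, and Ehf 1419474_a_at and 1419475_a_at differ between SJL and KS in opposite directions.

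Trp63, at 25683763 to 25892088 on chromosome 16, did not separate the strains. Its brightest probe set read 13205, 13308 and 12543 in B6, 12617, 12148 and 12346 in KS and 12885, 10589 and 12442 in SJL, with SJL replicate 2 alone below the rest. The differences were -0.05 in SJL against KS (interval -0.27 to 0.16), -0.07 in KS against B6 (-0.29 to 0.14) and -0.13 in SJL against B6 (-0.34 to 0.09). Without SJL replicate 2 and B6 replicate 3 that of SJL against KS turned to 0.03 and that of SJL against B6 was -0.07, both uncalled. Another Trp63 probe set, 1459581_at, also had its lowest value on SJL replicate 2, at 97.2 against 158 to 186 on the other 8 arrays, and its SJL against KS difference turned from -0.17 to 0.10 without the same pair, uncalled in both cases. The third, 1452027_a_at, ranged from 54.0 to 114 with overlapping strains, was called in SJL against KS only with array weights (0.56, adjusted p = 0.0482), and the fourth, at 4.39 to 4.49, was not tested. Which Trp63 isoforms these probe sets read was not analysed here.

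The ETS factors Elf3 and Ehf were not called, and Ehf gave readings of opposite sign. Elf3, at 135253574 to 135258472 on chromosome 1 and with 1 probe set, read 3723, 4227 and 4362 in B6, 3200, 3571 and 4105 in KS and 4323, 4193 and 4655 in SJL, so that SJL lay above KS on every array and B6 overlapped both. The SJL against KS difference was 0.28 (interval 0.02 to 0.54, adjusted p = 0.144). It was called only with array weights (0.29, adjusted p = 0.0202), a fit that did not fully converge.

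Ehf, at 103263431 to 103303275 on chromosome 2, read by its brightest probe set 10968, 10865 and 10843 in B6, 11512, 11464 and 10678 in KS and 10843, 8722 and 10435 in SJL, and the strains overlapped (-0.17 in SJL against KS, interval -0.40 to 0.05, and -0.08 without SJL replicate 2 and B6 replicate 3). The second, 1419474_a_at, read 4110, 4150 and 4457 in SJL, above all KS values (3659, 3312 and 3341) and all B6 values (3490, 3857 and 3169), and was 0.30 higher than in KS (interval 0.08 to 0.52, adjusted p = 0.0740). The third, 1419475_a_at, read 2598, 1637 and 2430 in SJL, below all KS values (2789, 3045 and 2755), with a difference of -0.39 (interval -0.78 to 0.00, adjusted p = 0.169). Neither was called in the fit as reported. For 1419474_a_at the difference was called with the intensity trend in the variance prior (0.30, adjusted p = 0.0344) and with array weights (0.38, 0.0011), as was that of SJL against B6 (0.28, 0.0471 and 0.31, 0.0127). As given above, the fit with array weights did not fully converge. Without B6 replicate 3 and SJL replicate 2 the SJL against KS values were 0.32 for 1419474_a_at and -0.19 for 1419475_a_at, both uncalled. The direction thus depended on the probe set.

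Tfap2a, at 40713802 to 40738238 on chromosome 13, was not called by any of its probe sets. The brightest read 4321, 4324 and 4159 in B6, 4321, 4099 and 4392 in KS and 4213, 3532 and 4191 in SJL, with differences of 0.00 in KS against B6 and -0.11 in both contrasts of SJL (interval -0.32 to 0.11 in each). Without SJL replicate 2 and B6 replicate 3 these were -0.02 against KS and -0.04 against B6. The second, 1426048_s_at, gave -0.06 for SJL against KS, -0.07 for KS against B6 and -0.13 for SJL against B6. The third, 1421995_at, read 2255, 2713 and 563 in B6, 2255, 2782 and 2941 in KS and 1728, 1544 and 2174 in SJL, so that B6 replicate 3 stood alone. Without that array and SJL replicate 2 its KS against B6 difference was 0.10 in place of 0.80, and its SJL against B6 difference was -0.35 in place of 0.25. This probe set therefore changed the direction of SJL against B6 with a pair of arrays, and it was not called in either case.

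Foxc1, at 31806646 to 31810635 on chromosome 13, read 4685, 4428 and 4577 in B6, 4685, 5139 and 4866 in KS and 4905, 3950 and 4658 in SJL by its brightest probe set. The strains overlapped, and the largest of its differences was -0.13, in SJL against KS (interval -0.35 to 0.10). Without SJL replicate 2 and B6 replicate 3 it was -0.03, and that of SJL against B6 turned from -0.02 to 0.07, both uncalled. The second probe set, 1419486_at, was highest on B6 replicate 3, at 1907 against 1191 to 1523 on the other 8 arrays, and gave 0.13 in SJL against KS. The 5 endothelial markers summed to 16484 to 20306 in SJL, 21400 to 25408 in KS and 20438 to 25331 in B6, and their part in the Foxc1 values was not tested.

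SJL replicate 2 was the lowest of the 9 arrays for 5 of the 9 factors, namely Pax6, Trp63, Ehf, Tfap2a and Foxc1. Over all genes tested it was the lowest array for 16.1%, and it was the highest for 24.2%. B6 replicate 3, with the highest 3' to 5' ratio of Gapdh, was the lowest array for 0 of the 9 at the brightest probe sets. Over all genes tested it was the lowest for 12.4%. The count was also 0 for B6 replicates 1 and 2, KS replicate 3 and SJL replicate 3. The log2 ratio of each dimmer probe set to the brightest of its gene was taken on every array for the 13 that were tested. It was lowest on B6 replicate 3 for 4 of the 13 and highest there for 1, and lowest on SJL replicate 2 for 3 and highest there for 1. The array most often highest was KS replicate 2, for 7 of the 13, and it was lowest for 2. B6 replicate 2 was highest for 3 and lowest for 0. For Pax6 1452526_a_at it was -3.54 on B6 replicate 3, -2.77 on SJL replicate 2 and -2.25 to -1.89 elsewhere. For Tfap2a 1421995_at it was -2.89 on B6 replicate 3, -1.29 on SJL replicate 1 and -1.19 on SJL replicate 2. For Foxc1 1419486_at it was highest on B6 replicate 3, at -1.26 against -1.98 to -1.38 on the other 8 arrays. These 3 were named after their values were seen. Only the change of such a ratio between arrays is read here, since the levels of different probe sets are not comparable. The part of RNA quality in these ratios was not tested.

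Among genes that these factors are known to act on, or that mark the differentiated corneal epithelium, the share called was not above that of all genes in any contrast. Krt12, the keratin of the corneal epithelium and a known target of Pax6 and Klf4, differed by -0.01 between SJL and KS (interval -0.18 to 0.15), by -0.09 between KS and B6 and by -0.10 between SJL and B6. Of 26 such genes listed, 25 were tested and Mmp9, at 4.94 or lower, was not. In SJL against KS limma called 2 higher and 1 lower, with a median difference of 0.05 against 0.02 over all genes, and 14.9% of all genes called. In KS against B6 it called 0, with 3 at an unadjusted p under 0.05 and a median of -0.06 against 0.01, where 6.27% of all genes were called. In SJL against B6 it called 2 higher and 0 lower, with a median of -0.03 against 0.02, where 16.1% of all genes were called.

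Itgb4, a hemidesmosome integrin of basal cells, had 1666, 2195 and 2092 in SJL, above the KS values of 1001, 1097 and 1070 and the B6 values of 1252, 910 and 1157. It was higher in SJL than in KS by 0.89 (adjusted p = 0.00407) and than in B6 by 0.84 (0.00541), under every alternative run. Psca, a cell surface antigen, was lower in SJL than in KS, at 10377 to 10914 against 13546 to 14250 (-0.39, adjusted p = 0.0101). Cldn7, a claudin, was higher in SJL than in KS (0.32, adjusted p = 0.0291), a call lost without any KS array or replicate 1 or 3 of SJL (0.0565 to 0.0963). Krt14, a basal keratin that Trp63 is known to act on, was higher in SJL than in B6 by 0.37 (adjusted p = 0.0456). That call was lost when any array except SJL replicate 1 was left out (0.0515 to 0.120). Aldh3a1, Tkt and Slurp1, an aldehyde dehydrogenase, a transketolase and a secreted protein abundant in cornea, differed by -0.06 to 0.05 in the 3 contrasts and were not called.

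Among 52 other transcription factors and regulators, chosen as relatives of the 9 or as factors of the ocular surface and anterior eye, 49 had a probe set and 39 were tested. The list includes the receptor Notch1. In SJL against KS limma called 2 higher and 2 lower, with a median of -0.03. In KS against B6 it called 0, with 6 at an unadjusted p under 0.05 and a median of -0.03. In SJL against B6 it called 1 higher and 5 lower, with a median of -0.15. These are 4 of 39 against 14.9% of all genes in SJL against KS and 6 of 39 against 16.1% in SJL against B6. The SJL against KS calls numbered 0 without KS replicate 2 or SJL replicate 3 and 2 without KS replicate 3, and the SJL against B6 calls numbered 3 without B6 replicate 2.

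Elf5, an ETS relative of Elf3 and Ehf, was lower in SJL, at 39.9, 65.1 and 35.5, than in KS, at 139, 137 and 117, and in B6, at 145, 96.7 and 223. The differences were -1.34 against KS (adjusted p = 0.0141) and -1.50 against B6 (0.00815). The first was lost without replicate 1 or 2 of KS or replicate 3 of SJL (0.0501 to 0.0554), and with no filter (adjusted p = 0.0658). Both differences turned, to 0.28 and 0.20, uncalled, with the mean of all Elf5 probe sets. Sox9, an SRY-box factor of progenitor cells, was higher in SJL, at 1715, 1211 and 1885, than in KS, at 831 to 950, and in B6, at 730 to 1002. The differences were 0.82 (adjusted p = 0.0162) and 0.86 (0.0124), and the first was lost without replicate 1 or 2 of KS or replicate 3 of SJL (0.0545 to 0.0590). With the mean of all Sox9 probe sets they were 0.40 and 0.39, still called, and with no filter neither was (adjusted p = 0.0618 and 0.0503).

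Among relatives of Klf4 and Klf5, Klf10 was higher in SJL than in KS (0.45, adjusted p = 0.0201), a call lost without replicate 2 or 3 of either strain (0.0533 to 0.0797). Klf13 was lower in SJL than in B6 (-0.73, adjusted p = 0.0149), a call lost without B6 replicate 1 or 2 (0.0542 and 0.0504). Klf3, Klf6, Klf7 and Klf9 were not called in any contrast, and Klf2, at 39.9 to 185, was not called either. Of the other AP-2 factors, Tfap2b and Tfap2c were not called, with differences of 0.22 and 0.29 in SJL against KS. Foxq1, a forkhead factor, gave 0.18, and Foxc2, the closest relative of Foxc1, lay at 5.53 or lower on all arrays, as Trp73, the relative of Trp63, lay at 4.89 or lower. Zeb1, a zinc-finger factor of mesenchymal cells, was lower in SJL than in KS (-0.64, adjusted p = 0.0305), a call lost without replicate 2 or 3 of either strain (0.0602 to 0.104). Dlx3, a homeobox factor of stratified epithelia, was lower in SJL than in B6 (-0.77, adjusted p = 0.0399), which was lost when any array except B6 replicate 1 or SJL replicate 3 was left out (0.0564 to 0.117).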

How the data were processed

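The deposited values are intensities of Affymetrix probe sets, which the authors had summarised to 1 value per probe set and array. The summary, background and scaling methods are not given in the sources used here. Per the labels' protocols, DNase-treated total RNA was labelled with biotin. The table held 45101 probe sets, 64 of them controls. The strains came from the sample titles. Probe sets whose mean log2(intensity + 10) lay below the median were left out, which left 22519, and limma 3.58.1 in R 4.3.3 fitted 1 mean per strain over 9 arrays (6 residual degrees of freedom, median 8.41 after moderation), two-sided, so p-values measure the spread between these mice. An exact permutation test of 3 against 3 cannot go below 0.1, so none was used. Genes were named from the platform annotation, in which 34945 probe sets had 1 symbol, 932 several and 9160 none; all 9 members are in the RefSeq table. On simulated data for SJL against KS with 22519 probe sets, 22% of changes of 0.5, 68% of 1, 90% of 2 and 100% of 4 (log2, 50 each) were called. Unchanged probe sets gave 11 calls, 7.28% of the calls made. Only these few probe sets were changed, in SJL alone, while 3489 were called in the data. The adjusted threshold therefore differed, and these shares are not the power of the tests reported here.

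The members and lists were chosen with earlier results of these data known. Named genes were the 9 members, Krt12, up to 4 called genes with the largest difference from each list and contrast, and the 3 genes most like each member called by the F-test; other genes were named after their values were seen. Alternatives covered filter, scaling, pseudocount, variance prior, array weights, replicate block, 6 arrays, left-out arrays, probe set means and a fold of 1.2. Without detection calls, low levels are upper bounds, and 3 arrays a strain set the precision. Replicate numbers were not treated as pairs in the fit as reported. Arrays of the same number in different strains correlated at -0.27 to 0.26 in their deviations from strain means, and arrays of different number at -0.36 to 0.42. With 3 arrays a strain these correlations cannot decide whether the numbers pair the samples.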

Additional observations from a re-analysis of the deposited data

How the results depend on the processing

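Over 22 alternatives the 9 members gave 594 differences, of which 591 kept their side of the threshold, 3 became called and 0 lost a call or reversed while called. Otx1 was called in all of them, at -5.12 to -4.46 in SJL against KS, 1.45 to 1.60 for KS against B6, and -3.60 to -2.98 for SJL against B6. The 3 gained calls were Elf3 in SJL against KS with array weights (0.29) and Klf5 with the mean of all its probe sets (-0.51 in SJL against KS and -0.40 in SJL against B6). Members called therefore numbered 2 in SJL against KS and in the F-test under each of these settings, and 2 in SJL against B6 with probe set means. With the replicate number as a block, Otx1 gave -4.98, 1.52 and -3.46, and the members called were 1 in each contrast and in the F-test. No other member call changed with the block, but the Klf5 1451739_at call in SJL against B6 was lost (adjusted p = 0.0545). It was also lost with no filter (0.121), with only the 6 arrays (0.0882) and against a fold of 1.2 (0.120). The Pax6 1437816_at call in SJL against KS was lost against that fold (0.343).

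For the listed genes, array weights, whose fit did not fully converge, gave 6 calls in the target list and 21 among the other factors in SJL against KS, 14 among the other factors in SJL against B6 and 1 in KS against B6. Against a fold of 1.2 each list had 1 call in SJL against KS and in SJL against B6. With the intensity trend the target list had 1 call for KS against B6 and 4 for SJL against B6. With no filter the other factors had 1 call in SJL against KS and 2 in SJL against B6. With pseudocount 1 or with only the 6 arrays the target list had 1 call in SJL against B6. It also had 1 there without the pair of arrays of highest Gapdh 3' to 5' ratio (chosen after seeing the data). The other factors had 1 call in KS against B6 with the 6 arrays, the block or without that pair, and 2 with probe set means. Leaving out 1 array gave 1 to 2 calls for the target list in SJL against B6, and for the other factors 0 to 5 in SJL against KS, 3 to 6 in SJL against B6 and 0 to 1 in KS against B6. Elf5 reversed to 0.28 and 0.20 with probe set means. Of 22519 probe sets, 3489 were called for SJL against KS, 1286 for KS against B6 and 3605 for SJL against B6. In that order the calls became 9450, 2232 and 7364 with array weights and 1796, 641 and 1840 against a fold of 1.2. The stricter filter left 13511 probe sets to test, of which 2101, 742 and 2156 were called. Over 9097 genes with probe set means the calls were 1431, 666 and 1582. KS against B6 had 838 calls among 45037 probe sets with no filter. Among 22519 it had 748 without KS replicate 2 and 826 without KS replicate 3.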
